A study of Mus musculus with 6 samples.

Results

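Chemokine receptors are the G protein-coupled receptors through which bone marrow macrophages (BMMs) read the gradients that bring monocytes and osteoclast precursors to bone. The 8 genes described here are Ccr1, Ccr2, Ccr3, Ccr7, Cx3cr1, Cxcr4, Ackr3 and Ccrl2, taken by gene symbol from the 24940 rows of the RNA-sequencing table. Of these, 6 had a mean of at least 0.5 RPKM (reads on a gene, scaled to a transcript of 1 kilobase and to 1000000 mapped reads) over the 6 libraries and were tested, while Ccr7 and Ackr3 were below that level and are given by their reads.

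Precursors were BMMs grown from the bone marrow of mice that the labels give as C57BL/6, aged 6 to 8 weeks, whereas the methods of the study name another strain. All 3 groups received 30 ng/mL M-CSF, the growth factor that keeps macrophages and their precursors alive. The -R group received M-CSF alone, the +R group also received 100 ng/mL RANKL, the cytokine that turns precursors into osteoclasts, and the R+LE group received RANKL together with 10 μg/mL LE, a leaf extract of Abeliophyllum distichum, for 3 days. Each group had 2 libraries, and since nothing says that they came from separate cultures or animals, p-values measure only the spread between these libraries.

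The libraries held 29390427 to 34846152 mapped reads, recovered from the steps between low RPKM values. The 45S ribosomal RNA precursor gene Rn45s took 4.97% to 13.5% of the reads on genes. All 8 macrophage markers and 9 osteoclast markers that were examined passed the filter, and all 9 osteoclast markers were called higher in +R against -R (median log2 change 5.43) and lower in R+LE against +R (median -2.15). Summed macrophage markers, among them Cd68, Adgre1 and Lyz2, stood at 6801 and 7387 RPKM in the -R libraries, 3467 and 2703 in those of +R, 4229 and 3784 in those of R+LE, and 4 of the 8 were called lower with RANKL. Markers of neutrophils and lymphocytes were low, but not all stromal markers were. Col1a1, at 3.37 to 8.33 RPKM, was above the tested members Ccr3 and Ccrl2 in every library. In any library the sum of 5 neutrophil markers reached at most 1.63 RPKM and the sum of 7 lymphocyte markers at most 1.09 RPKM, both in -R, and the sum of 5 stromal markers ranged from 7.64 (R+LE) to 16.7 (-R), with 2 of the 3 tested stromal markers lower by adjusted p in R+LE against +R. Because these are bulk samples, fewer cells of a type and less RNA per cell cannot be told apart.

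By way of background, a chemokine that binds its receptor activates G proteins of the Gi class, which drive phosphoinositide 3-kinase, phospholipase C and Rac and so steer the cell, and GRK kinases, arrestins and RGS proteins end the signal. Ccr1, Ccr2 and Ccr3 are inflammatory receptors that share ligands, and Ccr2 is the receptor of Ccl2 that lets monocytes leave the marrow. Cx3cr1 binds the membrane-anchored chemokine Cx3cl1 and is carried by monocytes, osteoclast precursors and tissue macrophages. Cxcr4 holds cells in the marrow through Cxcl12, Ackr3 is a scavenging receptor of the same ligand, Ccr7 guides dendritic cells and lymphocytes to lymph nodes, and Ccrl2 binds chemerin, the product of Rarres2, without signalling through G proteins.

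The 6 tested receptors showed 3 patterns. Ccr2, Cxcr4 and Ccrl2 were lower in both RANKL groups than in -R, Ccr1 and Ccr3 were lower in R+LE than in either other group, and Cx3cr1 was lowest in +R and higher again in R+LE. Of the first pattern, Ccr2 was also lower in R+LE than in +R, by less than 2-fold. A change was called at a limma adjusted p below 0.05 and a fold of at least 2 on the log2(RPKM + 0.5) scale, which understates the change of low genes, and "rose" and "fell" are used below only where the adjusted p passed. In +R against -R, 3 of the 6 were called lower and 0 higher, whereas 8.92% of the 11595 tested genes were called lower and 6.58% higher. With LE added (R+LE against +R), 2 were called lower and 0 higher, against 1.78% and 1.46% of all tested genes. For R+LE against -R, 5 were called lower and 0 higher, against 6.36% and 3.92%. The median log2 changes of the 6 were -0.79, -0.33 and -1.37 in the same order, beside 0.05, -0.05 and -0.01 for all tested genes. The comparisons share libraries, so that a +R or a -R library enters more than 1 of them.

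**Figure D1:**
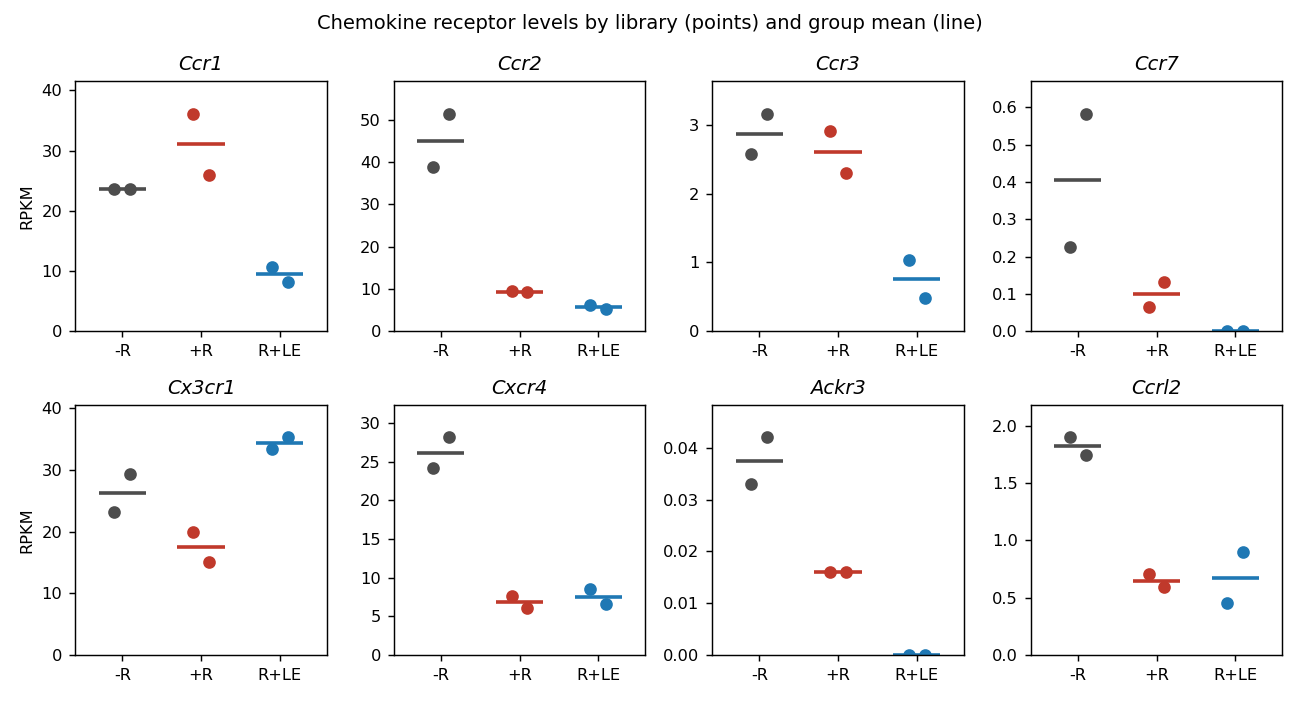
RPKM of the 8 chemokine receptors in each of the 6 libraries (points; grey -R, red +R, blue R+LE) with the mean of each group as a line, each panel on its own linear axis from 0. Ccr2 and Cxcr4 were high in -R only, Ccr1 and Ccr3 were low in R+LE, Cx3cr1 was at 33.4 and 35.3 RPKM in R+LE and at or below 29.3 RPKM elsewhere, and Ccr7 and Ackr3 stayed below 0.6 RPKM.

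Ccr1 (mm10 chr9:123962126-123968692, minus strand), a receptor of Ccl3, Ccl5, Ccl6 and Ccl9, had the highest RPKM of the 8 members in both +R libraries. It was measured at 23.7 and 23.6 RPKM in -R, 36.1 and 26.0 RPKM in +R, and 10.7 and 8.25 RPKM in R+LE. Both +R libraries were above both -R libraries, but the +R libraries differed from each other by more than the groups did at their nearest, and the log2 change of 0.37 (SE 0.17, 95% interval 0.01 to 0.73) had an adjusted p of 0.0916. Ccr1 fell in R+LE, where both libraries were below every other library. Its mean was 9.45 ± 1.70 RPKM (SD, n = 2) against 31.1 ± 7.15 RPKM in +R, a log2 change of -1.66 (SE 0.17, limma adjusted p = 1.09e-05) or 3.16-fold lower, and against 23.7 ± 0.04 RPKM in -R it was 2.45-fold lower (limma adjusted p = 2.63e-05). The R+LE level was thus below that of precursors without RANKL. Between 710 and 3136 reads lay behind each of these values. The difference between +R and -R is close to the threshold, since its adjusted p fell below 0.05 under 8 of 17 alternatives, from 0.0131 without +R replicate 2 to 0.0480 without R+LE replicate 1. All 9 osteoclast markers were lower too in R+LE against +R, and their part and that of the stromal markers in the level of Ccr1 were not tested.

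Ccr3, a receptor of the eotaxins that is best known from eosinophils, lies 59.8 kb from Ccr1 (chr9:124021971-124031689, plus strand) and was far less abundant. Its values were 2.57 and 3.16 RPKM in -R, 2.91 and 2.30 RPKM in +R, and 1.04 and 0.48 RPKM in R+LE. The -R and +R libraries overlapped, with a log2 difference of -0.12 (95% interval -0.58 to 0.34, adjusted p = 0.683), whereas both R+LE libraries were below the other 4. Ccr3 fell 2.52-fold in R+LE against +R (log2 change -1.33, SE 0.21, limma adjusted p = 0.000675) and 2.73-fold against -R (limma adjusted p = 8.62e-05). The R+LE values rested on 107 and 48 reads, and when every gene with a read was tested the call against +R was lost, with a limma adjusted p of 0.0700. The 4 eosinophil markers examined summed to between 0.08 and 0.24 RPKM in each library, in +R and -R respectively, and Prg2, a granule protein that defines eosinophils, was at 0 in all 6.

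Ccr1 and Ccr3 were also the nearest pair of tested members in their pattern over the 6 libraries, with a Euclidean distance of 0.58 between their centred log2(RPKM + 0.5) values, while the most distant pair, Ccr2 and Cx3cr1, lay 3.26 apart. Of all tested genes, the nearest to Ccr1 were Hyal1, which encodes a hyaluronidase (distance 0.47), Bcl2a1d, a survival gene of the Bcl2 family (0.52), and the microRNA gene Mir6948 (0.52). The nearest to Ccr3 were Bcl2a1b (0.39), Bcl2a1d (0.45) and Mir7029 (0.46). Reads of the near-identical Bcl2a1 copies can be split between them by the counting, and the microRNA entries are short, so these values are uncertain.

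Windows of 250 bases upstream of the start sites were read from RefSeq (GRCm38.p6) for 7 of the 8 members, none being listed for Ccr7. Those of Ccr1 (chr9:123968693-123968942, minus strand) and Ccr3 (chr9:124021721-124021970, plus strand) are shown because these members moved together in R+LE. They are written 5′ to 3′ on the strand of the gene, with GGAAA, the core bound by NFAT factors, in capitals on either strand (TTTCC where it lies on the other strand).
Ccr1: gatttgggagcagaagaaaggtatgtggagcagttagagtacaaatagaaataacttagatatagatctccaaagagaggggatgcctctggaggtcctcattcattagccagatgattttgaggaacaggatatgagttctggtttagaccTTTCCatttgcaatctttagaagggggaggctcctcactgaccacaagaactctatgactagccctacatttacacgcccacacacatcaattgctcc
Ccr3: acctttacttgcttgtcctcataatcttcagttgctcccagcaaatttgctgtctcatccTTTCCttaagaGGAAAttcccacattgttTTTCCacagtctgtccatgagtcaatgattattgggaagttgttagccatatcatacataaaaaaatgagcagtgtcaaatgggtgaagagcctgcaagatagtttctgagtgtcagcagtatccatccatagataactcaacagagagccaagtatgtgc
All 7 windows hold GGAAA at least once, as do 55.6% of the 32851 RefSeq windows of this length. The Ccr1 window holds 1 and the Ccr3 window 3. The AP-1 motif TGANTCA, searched on both strands, was found in the window of Ccr3 and in no other member's, and in 6.75% of all windows, and the antioxidant response core TGACNNNGC likewise in Ccr3 and in 10.2% of all windows. The PU.1 motif GAGGAAG and the interferon response motif, present in 10.6% and 2.98% of all windows, were in none of the 7. These matches describe letters in the windows. In the GENCODE annotation of the same build, the coding sequence of Ccr1, Ccr2, Ccr3, Cx3cr1, Ackr3 and Ccrl2 lies in 1 exon each and that of Ccr7 in 3, and no exon of these 7 overlaps the exons of another gene.

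Ccr2 (chr9:124102183-124109140, plus strand), the receptor of Ccl2, Ccl7 and Ccl12, showed the largest change of the 6 tested members in +R against -R. It was measured at 38.7 and 51.4 RPKM in -R, 9.54 and 9.21 RPKM in +R, and 6.22 and 5.34 RPKM in R+LE. No library of 1 group overlapped with those of another. With a mean of 45.1 ± 8.98 RPKM (SD, n = 2) in -R and 9.38 ± 0.23 RPKM in +R, Ccr2 fell 4.57-fold (log2 change -2.19, SE 0.16, limma adjusted p = 2.15e-08). It fell further with LE, to 5.78 ± 0.62 RPKM, a log2 change of -0.66 (SE 0.16, limma adjusted p = 0.0108) that did not reach 2-fold and had an adjusted p of 0.0547 without R+LE replicate 2 and 0.106 when every gene with a read was tested. Altogether R+LE was 7.20-fold below -R (limma adjusted p = 2.17e-09). Of the 50-base windows in a GENCODE transcript of Ccr2 of 2999 bases, 3.73% also occur in transcripts of other genes. Reads that fall there could have been counted elsewhere. The counted transcript was 3584 bases long, so part of it was not examined. The 4 macrophage markers called lower in +R against -R moved with Ccr2, and their part in its level was not tested.

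The genes with the most similar pattern to Ccr2 were Rgs2, a regulator of G protein signalling (distance 0.35), C1qb, a chain of the first complement component (0.42), and Cfb, complement factor B (0.44).

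Cxcr4 (chr1:128588199-128592299, minus strand), the signalling receptor of Cxcl12, fell with RANKL, and its +R and R+LE levels were close. The libraries held 24.1 and 28.2 RPKM in -R, 7.64 and 6.01 RPKM in +R, and 8.55 and 6.54 RPKM in R+LE. The +R and R+LE libraries overlapped, and all 4 were below the -R libraries. The fall from -R to +R was 3.65-fold (log2 change -1.87, SE 0.16, limma adjusted p = 2.11e-07), and from -R to R+LE it was 3.33-fold (limma adjusted p = 8.48e-07). In R+LE against +R the log2 difference was 0.13, with a 95% interval from -0.22 to 0.48 (limma adjusted p = 0.722), so that changes of 2-fold lie outside this interval in both directions. The nearest genes in pattern were Gm12250 (distance 0.19), Litaf, a gene induced by lipopolysaccharide (0.21), and Tgm2, a transglutaminase (0.22).

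Ackr3 (chr1:90203980-90215722, plus strand), the atypical receptor of the same ligand, was close to absent. It had 2 and 3 reads in -R, 1 read in each +R library and 0 reads in each R+LE library. All these counts are at or under 3 reads, which is what a count of 0 allows and corresponds to 0.04 to 0.05 RPKM of this transcript, so that no fold is given. Its differences were not detectable at this depth.

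The windows upstream of Ccr2 (chr9:124101933-124102182, plus strand) and Cxcr4 (chr1:128592300-128592549, minus strand) are shown in the same way, because these members fell most with RANKL and differ in base composition.
Ccr2: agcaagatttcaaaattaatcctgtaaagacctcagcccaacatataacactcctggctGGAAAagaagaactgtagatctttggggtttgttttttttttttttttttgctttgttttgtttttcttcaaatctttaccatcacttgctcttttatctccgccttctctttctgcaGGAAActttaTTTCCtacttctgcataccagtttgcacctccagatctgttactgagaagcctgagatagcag
Cxcr4: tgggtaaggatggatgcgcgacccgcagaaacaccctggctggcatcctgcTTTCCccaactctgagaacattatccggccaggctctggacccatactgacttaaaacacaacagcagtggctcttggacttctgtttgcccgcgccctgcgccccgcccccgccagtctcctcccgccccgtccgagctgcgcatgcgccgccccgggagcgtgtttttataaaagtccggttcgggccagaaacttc
The Ccr2 window was 37.2% G or C with 1 CpG, whereas that of Cxcr4 was 61.2% G or C with 19 CpGs, and the medians of all windows were 52.4% and 6. The Ccr1 and Ccr3 windows, at 43.6% and 40.4% with 1 and 0 CpGs, were below the median of all windows too.

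Ccrl2 (chr9:111054834-111057244, minus strand), the chemerin-binding receptor, was a low gene that followed Cxcr4 in direction. It was measured at 1.90 and 1.75 RPKM in -R, 0.70 and 0.59 RPKM in +R, and 0.45 and 0.90 RPKM in R+LE. The -R libraries were above the other 4, and the R+LE libraries enclosed both +R libraries. Ccrl2 fell 2.02-fold from -R to +R (log2 change -1.02, SE 0.22, limma adjusted p = 0.00151) and 2.02-fold from -R to R+LE (log2 change -1.01, SE 0.22, limma adjusted p = 0.00229), both at the edge of the 2-fold limit. In R+LE against +R its log2 difference was 0.01, with a 95% interval from -0.46 to 0.48 (limma adjusted p = 0.993). Only 25 to 107 reads lay behind each value, and the fold missed the limit under several settings. In +R against -R the log2 change was -0.78 with a pseudocount of 1, -0.99 with Rn45s left out, -0.97 without -R replicate 1 and -0.95 without +R replicate 2. For R+LE against -R it was -0.77 with a pseudocount of 1, -0.96 with median centring, -0.97 with Rn45s left out, -0.96 without -R replicate 1 and -0.73 without R+LE replicate 1. Its nearest genes were Slc45a4, a solute carrier (distance 0.23), Itprip, which encodes a protein that interacts with the inositol trisphosphate receptor (0.23), and H2-Q4, a class I histocompatibility gene (0.27).

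Cx3cr1 (chr9:120048683-120068296, minus strand) was the tested member that rose in R+LE against +R. It was measured at 23.1 and 29.3 RPKM in -R, 19.9 and 15.1 RPKM in +R, and 33.4 and 35.3 RPKM in R+LE. The 3 groups did not overlap, with R+LE highest and +R lowest. Cx3cr1 fell from 26.2 ± 4.37 RPKM (SD, n = 2) to 17.5 ± 3.38 RPKM with RANKL, a log2 change of -0.57 (SE 0.16, limma adjusted p = 0.00958) whose adjusted p was 0.1502 without -R replicate 2, 0.149 without +R replicate 2 and 0.0627 when every gene with a read was tested. It rose from there to 34.3 ± 1.34 RPKM in R+LE, 1.95-fold (log2 change 0.96, SE 0.16, limma adjusted p = 0.000995), which missed the 2-fold limit. The R+LE level was above -R by a log2 difference of 0.39 (95% interval 0.04 to 0.74) with an adjusted p of 0.0770, which fell below 0.05 under 5 of 17 alternatives. Between 1741 and 4029 reads were counted per library. The rise passed 2-fold when each library was centred on its median (log2 change 1.02), under quantile normalization (1.04), without +R replicate 1 (1.16) and without R+LE replicate 1 (1.0035). It was 0.77 without +R replicate 2, and its adjusted p was 0.0544 when every gene with a read was tested.

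**Figure D2:**
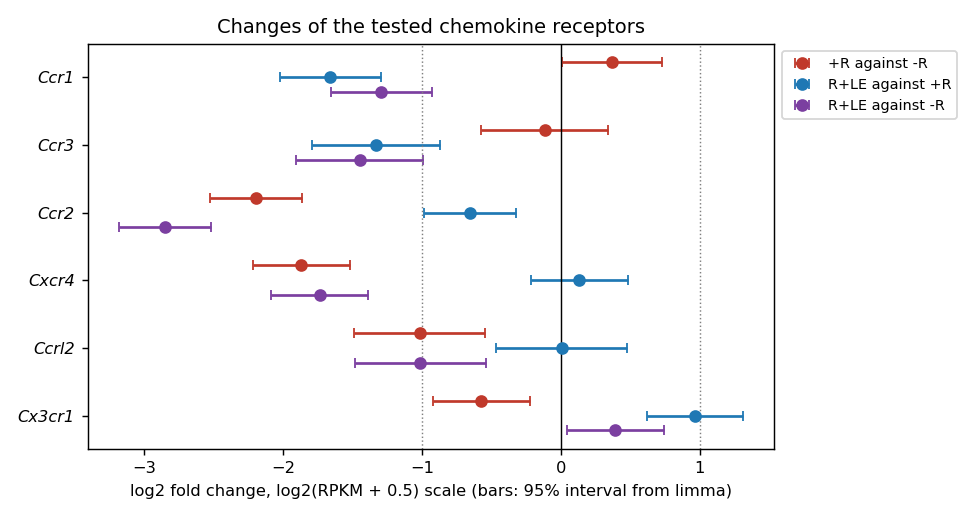
Log2 fold change on the log2(RPKM + 0.5) scale of the 6 tested chemokine receptors in +R against -R (red), R+LE against +R (blue) and R+LE against -R (purple), with 95% intervals from the limma fit; dotted lines mark 2-fold. For Ccr1 and Ccr3 the blue points are at -1.66 and -1.33, for Cxcr4 and Ccrl2 at 0.13 and 0.01, and for Cx3cr1 at 0.96.

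The window upstream of Cx3cr1 (chr9:120068297-120068546, minus strand) is given for the member that rose in R+LE.
Cx3cr1: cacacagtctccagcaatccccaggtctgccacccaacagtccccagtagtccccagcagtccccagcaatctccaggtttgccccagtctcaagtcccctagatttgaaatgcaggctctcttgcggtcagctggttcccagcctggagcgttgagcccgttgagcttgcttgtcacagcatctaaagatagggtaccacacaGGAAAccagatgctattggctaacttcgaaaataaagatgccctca
It was 53.6% G or C with 4 CpGs and holds GGAAA once.

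Ccr7 (chr11:99144199-99155077, minus strand), the homing receptor of Ccl19 and Ccl21, was below the filter, with 13 and 40 reads in -R (0.23 and 0.58 RPKM), 4 and 8 reads in +R (0.07 and 0.13 RPKM) and 0 reads in both R+LE libraries. The exact 95% Poisson intervals, which cover counting error only, were 6.92 to 22.2 and 28.6 to 54.5 reads in -R and 1.09 to 10.2 and 3.45 to 15.8 reads in +R. The counts of both -R libraries were above those of the others. The intervals of the -R libraries did not overlap each other, while those of -R replicate 1 and +R replicate 2 did. Against a floor of 3 reads per library, or 0.05 RPKM on average, the R+LE level was bounded at 8.22-fold below the -R mean and 2.02-fold below the +R mean. These bounds take the -R and +R means as exact. The interval of +R replicate 1 began at 1.09 reads, under the floor, so no minimum fold against +R follows. Without -R replicate 2 the first bound was 4.58, and without +R replicate 2 the second was 1.34. With the exact upper limit of 0 reads, 3.69 reads, in place of the floor they were 6.69 and 1.64, and both of these settings were chosen after the data were seen. When every gene with a read was tested, the limma adjusted p was 0.0384 for R+LE against -R, 0.0834 for +R against -R and 0.600 for R+LE against +R, and the fold of the first stayed under 2 on this scale, so that no call was made. The 7 lymphocyte markers moved with Ccr7 between -R and the other groups, with sums of 0.94 and 1.09 RPKM in -R, 0.07 and 0.25 RPKM in +R, then 0.10 and 0.27 RPKM in R+LE, and with Cd3e at 0 in all 6 libraries. The 6 dendritic cell markers summed to 1.90 and 2.72 RPKM in -R, 2.83 and 2.43 RPKM in +R, and 1.69 and 1.75 RPKM in R+LE. This sum joins markers that moved in different directions. Flt3 had means of 0.24, 0.01 and 0.01 RPKM in -R, +R and R+LE. In the same order, Cd209a had 0.39, 0.02 and 0 RPKM, and Fscn1 1.165, 0.69 and 0.55 RPKM. Zbtb46, at 0.09, 0.83 and 0.15 RPKM, Ccl22, at 0.40, 0.93 and 0.95 RPKM, and Ccl17, at 0.03, 0.16 and 0.06 RPKM, were lowest in -R. The part of these cell types in the level of Ccr7 was not tested.

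The makeup of the receptors in each library differed between the groups. Over the 8 members and 15 further chemokine receptors reported here, the summed level was 118 and 141 RPKM in -R, 78.9 and 61.9 RPKM in +R, and 62.7 and 58.7 RPKM in R+LE. The share of Cx3cr1 in this sum was 19.7% and 20.8% in -R, then 25.2% and 24.4% with RANKL and 53.3% and 60.1% with RANKL and LE. That of Ccr1 was 20.2% and 16.7% in -R, 45.8% and 42.0% with RANKL, 17.0% and 14.0% with RANKL and LE. Of these 23 genes, the leading one was thus Ccr2 in both -R libraries (32.9% and 36.4%), Ccr1 in both +R libraries and Cx3cr1 in both R+LE libraries. These shares are parts of a whole, so that 1 receptor's share also moves with the level of the others and with the genes included, and no test was made of them. In -R the order of the members by mean RPKM was Ccr2, Cx3cr1, Cxcr4, Ccr1, Ccr3 and Ccrl2, and the libraries of Cx3cr1 enclosed those of Cxcr4 and Ccr1. In +R the order was Ccr1, Cx3cr1, Ccr2, Cxcr4, Ccr3 and Ccrl2, with no overlap between neighbours, and in R+LE it was Cx3cr1, Ccr1, Cxcr4, Ccr2, Ccr3 and Ccrl2, where the libraries of Ccr1 and Cxcr4 and those of Ccr3 and Ccrl2 overlapped.

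**Figure D3:**
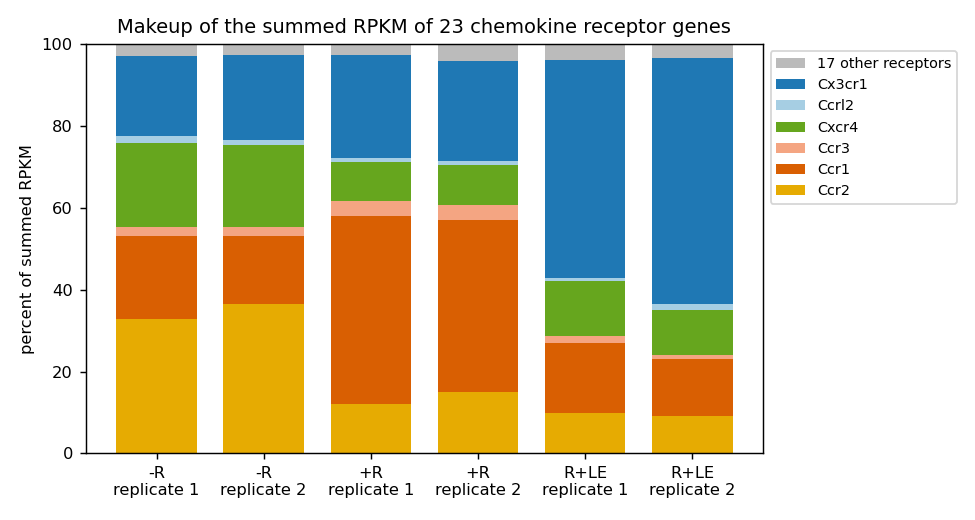
Stacked bars of the percent of the summed RPKM of 23 chemokine receptor genes in each library, with the 6 tested members in colour and the other 17 genes in grey. Ccr2 led the -R libraries with 32.9% and 36.4%, Ccr1 the +R libraries with 45.8% and 42.0%, and Cx3cr1 the R+LE libraries with 53.3% and 60.1%.

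Of the 15 further receptors, Cxcr2 passed the filter, and the other 14 reached at most 0.72 RPKM in any library. Cxcr2 was not called in any comparison, with log2 differences between -0.01 and 0.30.

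In position, 14 of the 23 receptor genes lie on chromosome 9, 5 of them members, and 7 of these lie within 341.9 kb around Ccr1 (mm10 chr9:123767211-124109140). From low to high coordinates these are Ccr9, Cxcr6, Xcr1, Ccr1, Ccr1l1, Ccr3 and Ccr2. Ccr9, Cxcr6, Xcr1 and Ccr1l1 had group means of at most 0.57 RPKM, while the 3 members were tested. Ccr2 fell by 2.19 on the log2 scale with RANKL and by 0.66 in R+LE against +R. Ccr1 and Ccr3 had log2 differences of 0.37 and -0.12 with RANKL, and fell by 1.66 and 1.33 in R+LE against +R. In R+LE against -R, Ccr2, Ccr3 and Ccr1 fell by 2.85, 1.45 and 1.29. Whether the changes of these neighbouring genes differ from each other was not tested.

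**Figure D4:**
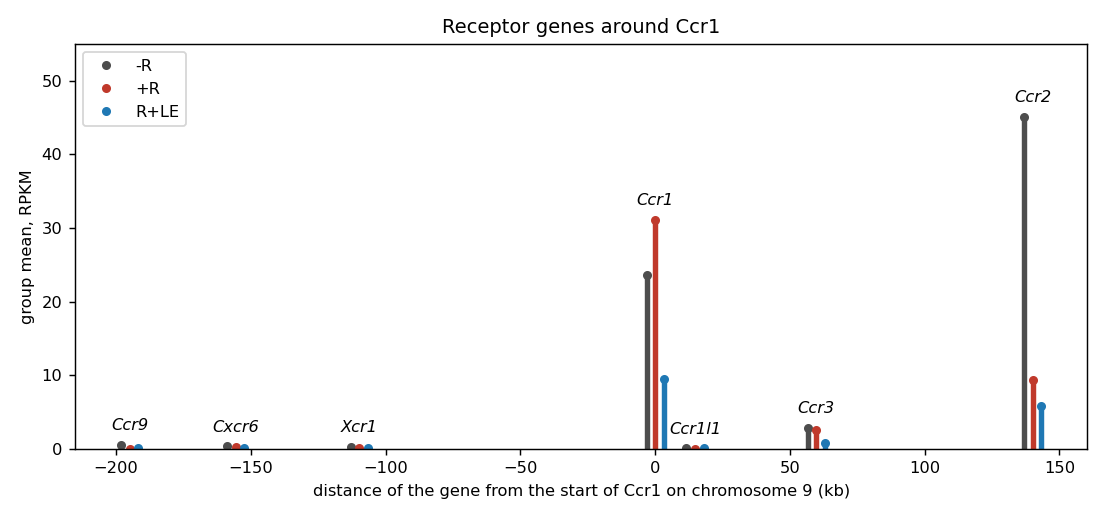
Group mean in RPKM (grey -R, red +R, blue R+LE) of 7 receptor genes around Ccr1 on chromosome 9, against the distance in kb of each gene's lowest coordinate from that of Ccr1, with the 3 groups drawn side by side at each gene. Ccr2, 140.1 kb from Ccr1, was high in -R, whereas Ccr1 and Ccr3 were low in R+LE.

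The ligands of these receptors were read from a list of 19 genes, of which 10 passed the filter. In +R against -R, 1 ligand was called higher and 7 lower, against 6.58% and 8.92% of all tested genes. The lower ones were Ccl2, Ccl7 and Ccl12, which bind Ccr2, Ccl3, Ccl5 and Ccl6, which bind Ccr1, and Ccl4, a related inflammatory chemokine. Ccl2 fell from 316 ± 6.55 RPKM (SD, n = 2) to 15.7 ± 0.52 RPKM, a log2 change of -4.28, and Ccl7 from 195 ± 0.58 RPKM to 3.22 ± 0.67 RPKM, a log2 change of -5.73. The log2 changes of the other 5 were -2.85 for Ccl3, -3.47 for Ccl4, -3.40 for Ccl5, -4.13 for Ccl6 and -1.65 for Ccl12. Cxcl11, a ligand of Cxcr3 and Ackr3, was the ligand called higher, at 0.06 ± 0.04 RPKM in -R and 1.44 ± 0.30 RPKM in +R.

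Ccl9, a ligand of Ccr1 that osteoclasts are known to make, did not follow the others. It was measured at 462 and 457 RPKM in -R, 471 and 402 RPKM in +R, and 345 and 267 RPKM in R+LE. The -R and +R libraries were close, and both R+LE libraries were below them, with a limma adjusted p of 0.0871 against +R and 0.0205 against -R (log2 change -0.60). Rarres2, the gene of chemerin, rose with RANKL from 1.48 ± 0.08 to 3.05 ± 0.50 RPKM (log2 change 0.84, limma adjusted p = 0.00149) and fell again to 1.62 ± 0.34 RPKM in R+LE (log2 change -0.75, limma adjusted p = 0.0128), and neither change reached 2-fold.

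With LE added to RANKL, 0 ligands were called by limma, against 2 with an adjusted p below 0.05, 1 in each direction, a threshold that 5.19% of all tested genes passed upward and 6.86% downward. Ccl2 rose by 0.57 on the log2 scale (limma adjusted p = 0.0295), which missed the adjusted p under 8 of 17 alternatives, among them the omission of any 1 library but R+LE replicate 2. Ccl7 had a log2 difference of -0.0006, whose sign changed with the setting. Against -R, 1 ligand was called higher and 7 lower, beside 3.92% and 6.36% of all tested genes. These ligands were the 8 genes called with RANKL. Cxcl12, the ligand of Cxcr4, and Cx3cl1, the ligand of Cx3cr1, were below the filter, with at most 0.48 and 0.31 RPKM in any library. Ccl21a was at 0 in all 6 libraries and Ccl19 was at 0 in 5 of them.

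**Figure D5:**
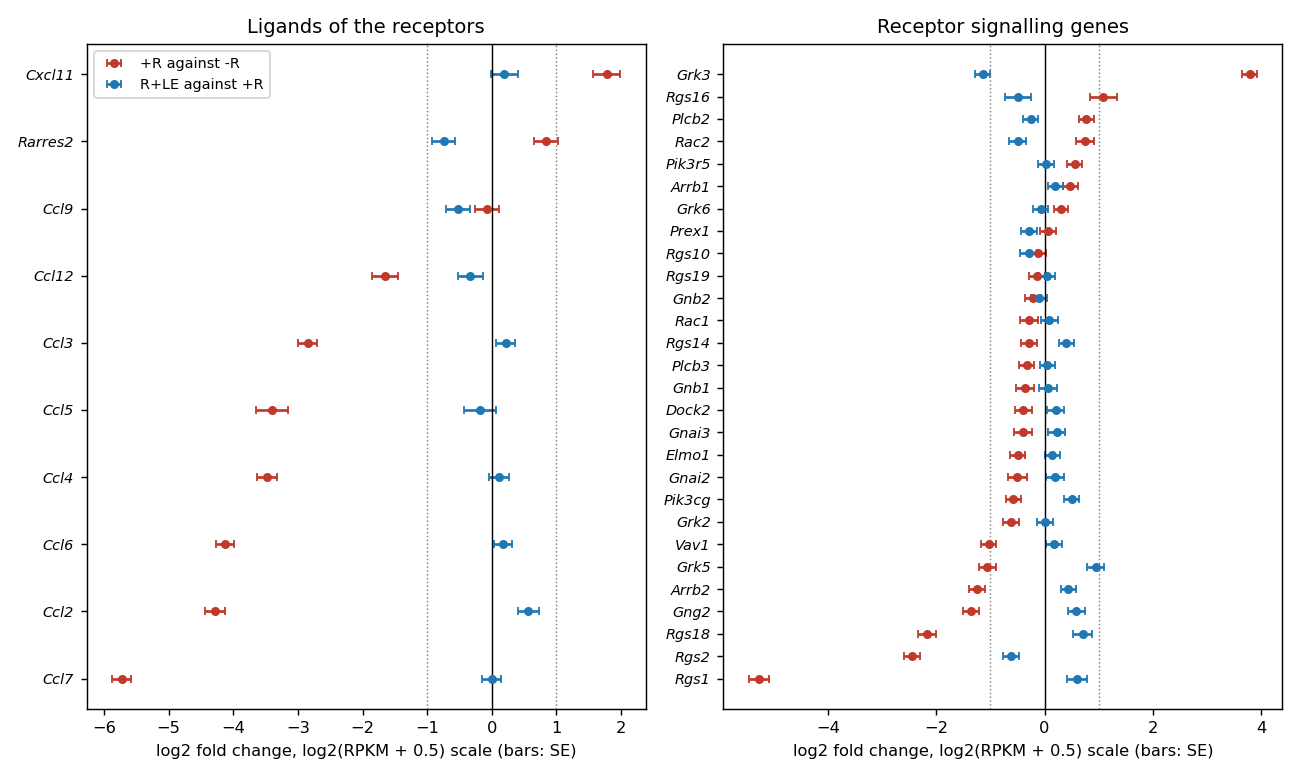
Log2 fold change on the log2(RPKM + 0.5) scale with its SE in +R against -R (red) and R+LE against +R (blue) for the 10 tested ligands (left) and the 28 tested signalling genes (right), ordered by the change with RANKL; dotted lines mark 2-fold. Ccl7 and Rgs1 are at -5.73 and -5.27 in red, Grk3 is at 3.79 in red and -1.14 in blue, and every other blue point lies within 2-fold.

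Of 29 genes that carry or end the receptor signal, 28 passed the filter. In +R against -R, 2 were called higher and 7 lower, against 6.58% and 8.92% of all tested genes, and the median log2 change was -0.34. Among genes that end the signal, Rgs1, an RGS protein that dampens Gi signals, fell from 69.7 ± 4.15 RPKM (SD, n = 2) to 1.37 ± 0.61 RPKM (log2 change -5.27, limma adjusted p = 1.24e-11), and Rgs2 and Rgs18 fell by 2.44 and 2.17 on the log2 scale. Arrb2, an arrestin, and the receptor kinase Grk5 fell by 1.24 and 1.06, while Grk3, a receptor kinase too, rose, and so did Rgs16 by a log2 change of 1.09. Of genes that carry the signal, Gng2, a G protein gamma subunit, and Vav1, an exchange factor for Rac, fell by 1.36 and 1.03. The calls of Grk5, Rgs16 and Vav1 lay near the 2-fold limit and were lost under 2, 3 and 3 of the alternatives, among them the omission of +R replicate 2 for Grk5 (-0.97), of +R replicate 1 for Rgs16 (0.85) and of -R replicate 2 for Vav1 (-0.9972).

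Grk3 was the signalling gene called in R+LE against +R. It was measured at 0.98 and 1.10 RPKM in -R, 21.1 and 20.3 RPKM in +R, and 8.84 and 9.43 RPKM in R+LE. The groups were far apart, with a log2 change of 3.79 with RANKL (SE 0.14, limma adjusted p = 1.49e-11) and of -1.14 in R+LE against +R (SE 0.14, limma adjusted p = 4.71e-05). Grk5 moved the other way, with means of 1.62 ± 0.18 RPKM in +R against 3.58 ± 0.52 RPKM with LE (log2 change 0.94, limma adjusted p = 0.00108), which was just under 2-fold and passed it under 4 alternatives. By adjusted p, 4 of the 28 signalling genes were higher and 2 lower in that comparison, against 5.19% and 6.86% of all tested genes. Against -R, Grk3 was called higher and Rgs1, Rgs2 and Rgs18 lower. These were 1 and 3 of the 28, beside 3.92% and 6.36% of all tested genes.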

How the data were processed

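RNA was measured in 6 libraries of mouse BMMs, grouped by the labels. Per the file headers and the paper's methods, the authors aligned reads to mm10, counted reads on exons of 1 transcript per gene on either strand with HOMER, and deposited RPKM values; the column titles call them FPKM. The paper names TopHat as the aligner and the submitters' processing notes name HISAT2, without versions.

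The members and gene lists were chosen with earlier results of these data known. limma 3.58.1 in R 4.3.3 fitted log2(RPKM + 0.5) of all 6 libraries, moderated by empirical Bayes along a variance trend, over the 11595 genes whose mean reached 0.5 RPKM, with Benjamini-Hochberg adjustment. An exact permutation test of 2 against 2 cannot go below p = 0.333, so none was used. Tables were handled in Python 3.11.15 with pandas 2.3.3.

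The RPKM of low values were whole multiples of 1 read (100% within 0.15 read), which gave reads and depth (29390427 to 34846152 mapped reads). Intervals and floors (3 reads) cover counting error only. The steps were tested on simulated data. Some results are not reported here. Of the table's symbols, 26 had been turned into dates and were restored.

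The members and the called genes of the lists are named, with the 3 nearest genes of each called member and the receptor genes around Ccr1; the other ligands and markers were named after their values were seen. Alternatives were other pseudocounts (0.1 and 1), no filter, a filter of 1 RPKM, no variance trend, only the compared groups, median centring, quantile normalization, Rn45s left out, a replicate block, voom on recovered reads and each replicate left out.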

Additional observations from a re-analysis of the deposited data

How the results depend on the processing

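The count of called members in R+LE against +R was 1 when every gene with a read was tested, against 2. The other counts of called genes and members stayed within 1.5 times under every alternative run, with 1518 to 2138 genes called in +R against -R, 275 to 525 in R+LE against +R and 956 to 1504 in R+LE against -R. Signs changed only for differences that missed the adjusted p with all libraries. With each replicate left out in turn, the log2 difference ranged from -0.26 to 0.0245 for Ccr3 in +R against -R. In R+LE against +R it ranged from -0.0493 to 0.31 for Cxcr4, -0.27 to 0.28 for Ccrl2, -0.031 to 0.26 for Ccl4, -0.73 to 0.35 for Ccl5 and -0.18 to 0.18 for Ccl7, and for Grk5 in R+LE against -R from -0.24 to 0.0148. In R+LE against +R, the Ccrl2 difference was -0.0115 with a pseudocount of 0.1 and -0.029 with voom, and that of Ccl7 was 0.0010 with a pseudocount of 0.1, 0.0504 with median centring, 0.0419 under quantile normalization, 0.0196 with Rn45s left out and 0.0011 with voom. The cause was not tested. Replicate numbers are shared between the groups. Deviations of same-numbered libraries correlated at -0.046 (-R and +R), 0.107 (-R and R+LE) and 0.249 (+R and R+LE). These correlations cannot show whether same-numbered libraries shared a culture or an animal, which nothing states. With the replicate block 1801, 389 and 1200 genes and 3, 2 and 5 members were called in the 3 comparisons. Depth limits Ackr3, Ccr7, Ccrl2 and the R+LE value of Ccr3.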
